A study of Mus musculus with 12 samples.

Results

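Simple epithelial keratins (5 genes), Krt7, Krt8, Krt18, Krt19 and Krt20, and 5 claudins, Cldn2, Cldn3, Cldn4, Cldn7 and Cldn18, were followed through 12 mouse pancreas tumours. They were taken by symbol from the 30142 genes of the array, and each of the 10 was measured by 1 probe set, so no choice between probe sets was needed. Each tumour came from its own mouse and had 1 one-colour array, and each of the 4 groups held 3 tumours. All mice are labelled PKT, the usual name of a genetic mouse model of pancreatic cancer driven by Cre in the pancreatic epithelium. The groups were FAP depleted and FAP-TK control tumours, and aSMA depleted and aSMA-TK control tumours. FAP is fibroblast activation protein, aSMA is alpha smooth muscle actin, and TK is viral thymidine kinase, which lets ganciclovir kill the dividing cells that make it. The labels give ganciclovir at 50 ug/kg for all 12 mice and call the controls only free of depletion, so whether controls were dosed is unclear. Strain, sex and age are not given in the labels.

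Keratins are the intermediate filament proteins of epithelial cells. They form filaments only as pairs of a type I chain (Krt18, Krt19, Krt20) with a type II chain (Krt7, Krt8). Krt8 with Krt18 is the basic pair of single-layered epithelia and is also made by acinar cells, while Krt7 and Krt19 mark pancreatic ducts and Krt20 marks gut and urothelial lining. Claudins are the membrane proteins that seal tight junctions between neighbouring epithelial cells. Cldn3, Cldn4 and Cldn7 are widespread in glandular and ductal epithelium, Cldn2 forms cation pores in leaky epithelia, and Cldn18 is a claudin of stomach and lung that pancreatic tumours often switch on.

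Values are given as log2 intensities after quantile normalization between arrays, and differences, each ± SE, are in the same log2 units. They were not turned into folds, because the deposited scale reaches 19.93, beyond what a scanner records directly. In the arrays, 3 of 12 had a low separation of positive from negative control probe sets, at 2.69 in FAP depleted tumour 2 and at 2.97 and 2.99 in FAP-TK control tumours 1 and 3, against 4.32 to 4.89 on the other 9. The median negative-control value was 5.46 to 6.40 in FAP depleted and 5.62 to 6.49 in FAP-TK control tumours, and 4.50 to 4.88 and 4.46 to 4.73 in the matching aSMA groups. The antigenomic background probe sets were at 2.70 to 3.05 on all arrays. Fap was lower in all 3 FAP depleted tumours than in all FAP-TK controls (-1.11 ± 0.37, n = 3 per group), although its adjusted p by limma was 1. It was also lower in all 3 aSMA-TK controls than in all FAP-TK controls (-0.67 ± 0.37), so lack of overlap was not particular to depletion. The mean of Acta2 was not lower in the tumours labelled aSMA depleted (1.68 ± 1.71), so these are called by their label. Acta2 had 10.13, 13.86 and 15.28 there and 12.26, 10.85 and 11.12 in aSMA-TK controls. Only the tumour labelled aSMA depleted 1 was thus below every control.

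Of the 10 genes, 9 were above the negative-control median on all 12 arrays. Cldn2 was above it on 9 arrays and above the 95th percentile of the negative controls on 0, so its values lie close to background. Cldn3 and Cldn7 passed that percentile on 2 arrays each, Krt7 on 11, and the other 6 genes on all 12.

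The keratin pair Krt8 and Krt18 is described first. These genes lie next to each other on chromosome 15 and point away from each other, with 0 protein-coding genes annotated between them. The 250 bases before each RefSeq start (GRCm38.p6) are shown because the pair varied together. They are chr15:102004343-102004592 on the minus strand for Krt8 and chr15:102027966-102028215 on the plus strand for Krt18. Capitals mark the E-box CAGGTG on either strand, the form that binds the epithelial repressors of the Snail and Zeb families.
Krt8: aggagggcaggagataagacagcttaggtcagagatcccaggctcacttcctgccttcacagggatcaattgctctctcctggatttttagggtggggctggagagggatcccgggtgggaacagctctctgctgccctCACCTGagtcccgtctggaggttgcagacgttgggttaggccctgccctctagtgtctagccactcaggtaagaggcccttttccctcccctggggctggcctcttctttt
Krt18: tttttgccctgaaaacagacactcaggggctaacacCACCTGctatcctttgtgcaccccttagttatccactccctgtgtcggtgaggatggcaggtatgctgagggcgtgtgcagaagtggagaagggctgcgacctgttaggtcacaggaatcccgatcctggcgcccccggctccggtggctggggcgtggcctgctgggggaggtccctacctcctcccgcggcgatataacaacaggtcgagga
Each window holds the motif once, and 17.2% of all 32851 promoter windows of this length hold it at least once. Such a match is a description of the letters and not a site in use.

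Krt8 stood at 18.10, 16.06 and 17.99 in the FAP depleted tumours and at 15.99, 16.98 and 15.19 in the FAP-TK controls. Krt18 stood at 18.55, 16.29 and 18.73 in the FAP depleted tumours and at 17.37, 17.50 and 15.52 in the FAP-TK controls. For each gene FAP depleted tumours 1 and 3 were above every control, while FAP depleted tumour 2 lay among them. The differences were 1.33 ± 0.62 for Krt8 (95% confidence interval -0.07 to 2.72) and 1.06 ± 0.69 for Krt18 (-0.47 to 2.59). In the tumours labelled aSMA depleted Krt8 had 16.11, 17.18 and 17.16, against 17.05, 16.44 and 17.53 in aSMA-TK controls, a difference of -0.19 ± 0.62. Krt18 had 16.87, 17.18 and 17.10 in the tumours labelled aSMA depleted and 17.02, 16.23 and 17.30 in aSMA-TK controls, a difference of 0.20 ± 0.69. The groups of that line overlapped for Krt8 and Krt18. After group means were taken off, the genes had a Pearson r of 0.91 over the 12 arrays (Spearman rho 0.88, and r 0.81 without the 2 arrays farthest from the median of Krt8). This r was not particular to the neighbours, since Krt8 also had r = 0.91 with Krt19, a gene of chromosome 11.

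**Figure D1:**
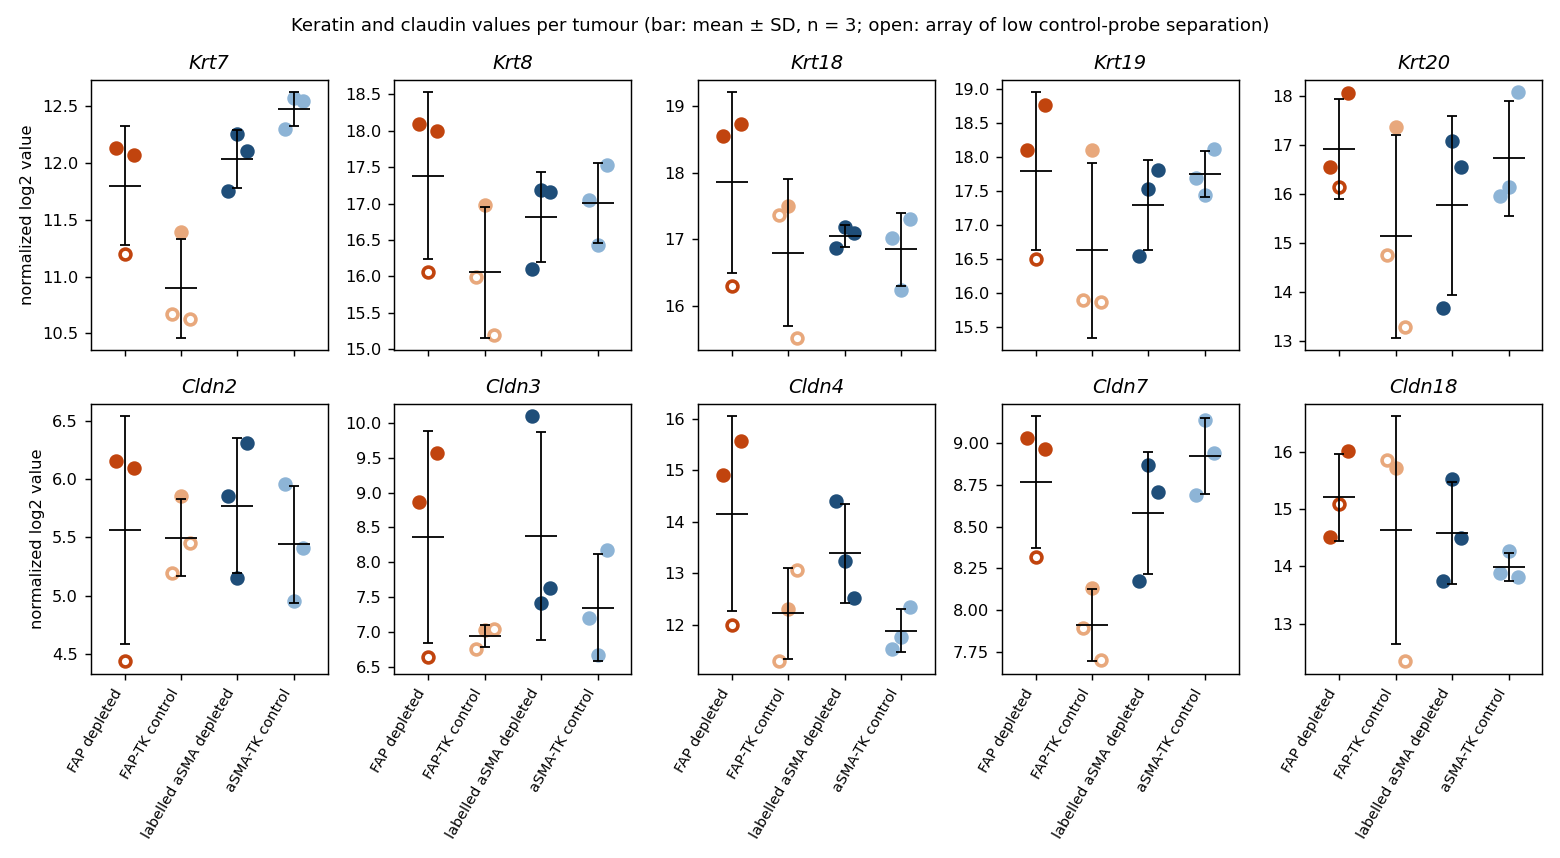
Normalized log2 value (y axis) of each gene in each tumour, by group (x axis), with black bars for mean ± SD of 3 tumours and open circles for the 3 arrays of low control-probe separation. The FAP-TK controls have the lowest mean of Krt7 and Cldn7, and open circles of the FAP line lie below the filled ones for all 5 keratins.

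Krt7, the ductal type II keratin, had the smallest standard error among the keratins. It stood at 12.13, 11.19 and 12.07 in the FAP depleted tumours and at 10.67, 11.39 and 10.62 in the FAP-TK controls. The difference was 0.90 ± 0.28 (0.27 to 1.53), with overlap of FAP depleted tumour 2 and FAP-TK control 2. In the aSMA line the direction was the other way. Krt7 had 11.75, 12.25 and 12.10 in the tumours labelled aSMA depleted and 12.30, 12.57 and 12.55 in the aSMA-TK controls, so all 3 were below every control, with a difference of -0.44 ± 0.28 (-1.07 to 0.19).

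Krt19 ran from 16.51 to 18.78 in FAP depleted tumours and from 15.87 to 18.11 in FAP-TK controls (1.17 ± 0.70). It ran from 16.54 to 17.81 in the tumours labelled aSMA depleted and from 17.44 to 18.12 in aSMA-TK controls (-0.46 ± 0.70). Krt20 had the largest SD of the 10 genes in 3 groups, at 2.07 in FAP-TK controls, 1.83 in the tumours labelled aSMA depleted and 1.17 in aSMA-TK controls. Its difference was 1.78 ± 1.17 in the FAP line (-0.85 to 4.41) and -0.96 ± 1.17 in the aSMA line (-3.59 to 1.66). The lowest Krt20 values were 13.27 in FAP-TK control 3 and 13.67 in the tumour labelled aSMA depleted 1.

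Among the claudins, Cldn3 and Cldn4 form a second neighbouring pair. They lie on chromosome 5, pointing away from each other, with 0 annotated genes between them. Their windows are shown because the pair varied together and apart from the keratins. They are chr5:134985964-134986213 on the plus strand for Cldn3 and chr5:134946935-134947184 on the minus strand for Cldn4, from RefSeq GRCm38.p6. Capitals mark the AP-1 motif TGANTCA, the Sp/KLF motif GGGCGG and the E-box CAGGTG on either strand, which do not overlap here.
Cldn3: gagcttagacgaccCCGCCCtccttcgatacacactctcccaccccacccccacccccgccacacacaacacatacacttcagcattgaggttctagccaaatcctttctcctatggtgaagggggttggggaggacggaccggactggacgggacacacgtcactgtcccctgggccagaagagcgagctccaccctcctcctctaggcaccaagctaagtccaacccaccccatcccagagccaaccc
Cldn4: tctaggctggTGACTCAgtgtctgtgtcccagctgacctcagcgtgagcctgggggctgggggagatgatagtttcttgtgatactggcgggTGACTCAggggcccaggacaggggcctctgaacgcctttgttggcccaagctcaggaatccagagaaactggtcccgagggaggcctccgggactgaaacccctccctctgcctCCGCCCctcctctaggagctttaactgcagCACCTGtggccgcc
The Cldn4 window holds the AP-1 motif 2 times, which 0.338% of all windows do, and 1 or more are found in 6.75%. The Cldn3 window holds no AP-1 motif, and each window holds the Sp/KLF motif once, found in 32.7% of all windows. Over the 9 genes with an entry, AP-1 letters were found in 1 of 11 windows, Sp/KLF letters in 4 and the E-box in 5. Krt19 has no entry.

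Cldn4 stood at 14.91, 12.00 and 15.56 in the FAP depleted tumours and at 11.29, 12.31 and 13.06 in the FAP-TK controls. Cldn3 stood at 8.87, 6.65 and 9.56 in the FAP depleted tumours and at 6.76, 7.02 and 7.04 in the FAP-TK controls. As with Krt8 and Krt18, FAP depleted tumours 1 and 3 were above all controls and tumour 2 was not. The differences were 1.94 ± 0.87 for Cldn4 (-0.01 to 3.88) and 1.42 ± 0.84 for Cldn3 (-0.47 to 3.31). In the aSMA line Cldn4 had 14.41, 13.23 and 12.51 in the tumours labelled aSMA depleted and 11.54, 11.77 and 12.34 in aSMA-TK controls. All 3 were above every control, by 1.50 ± 0.87 (-0.44 to 3.45). Cldn3 had 10.10, 7.41 and 7.62 in the tumours labelled aSMA depleted and 7.20, 6.67 and 8.18 in aSMA-TK controls (1.03 ± 0.84), and that difference was 0.17 without the tumour labelled aSMA depleted 1.

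Cldn7, a claudin that also sits along the lateral membrane, stood at 9.03, 8.32 and 8.96 in the FAP depleted tumours and at 7.90, 8.13 and 7.70 in the FAP-TK controls. It was the only one of the 10 genes whose FAP groups did not overlap, with a difference of 0.86 ± 0.24 (0.33 to 1.39). In the aSMA line it had 8.17, 8.87 and 8.70 in the tumours labelled aSMA depleted and 8.69, 9.14 and 8.94 in aSMA-TK controls (-0.34 ± 0.24), with overlap. Cldn18 ran from 14.50 to 16.02 in FAP depleted tumours, against 12.34 to 15.85 in FAP-TK controls (0.57 ± 0.86), and from 13.75 to 15.52 in the tumours labelled aSMA depleted, against 13.81 to 14.26 in aSMA-TK controls (0.60 ± 0.86). Cldn2 differed by 0.07 ± 0.48 and 0.33 ± 0.48 in the FAP and aSMA lines.

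**Figure D2:**
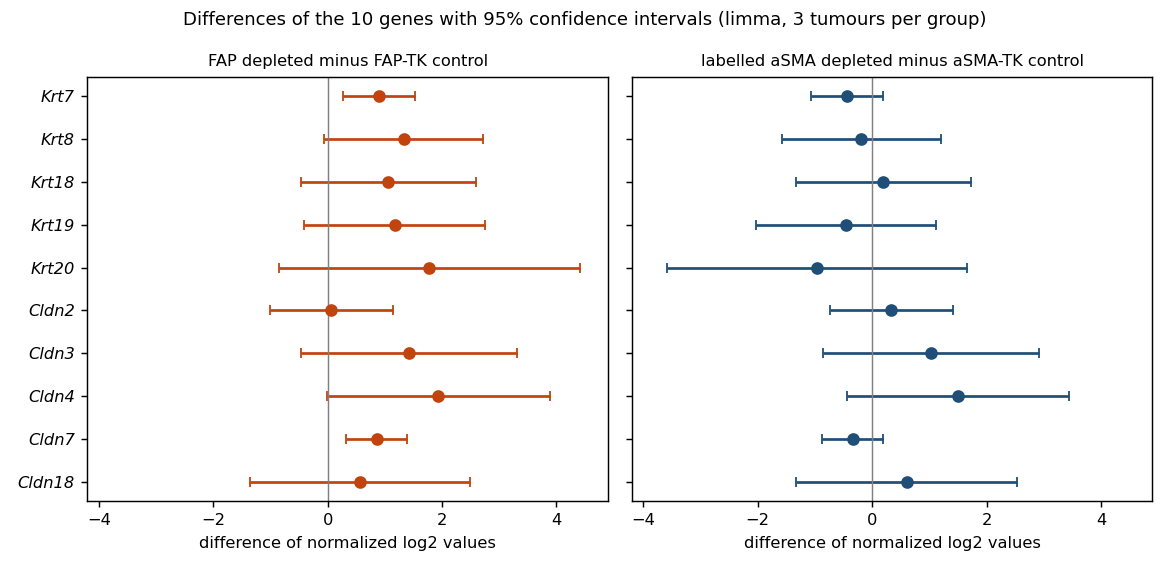
Difference of normalized log2 values (x axis) of each gene (y axis) in FAP depleted minus FAP-TK control tumours (left) and in tumours labelled aSMA depleted minus aSMA-TK controls (right), with 95% confidence intervals from limma. In the left panel 10 of 10 points lie above 0 and the intervals of Krt7 and Cldn7 do not reach it; in the right panel all intervals cross 0.

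Across the FAP comparison 10 of 10 genes were higher in the depleted tumours, with a median difference of 1.12, where all 30142 genes had a median of 0.04 and 59.9% were above 0. Without FAP depleted tumour 2 that median was 1.83, and with array weights it was 1.92. Leaving out 1 tumour at a time moved Krt18 between 0.42 and 1.84, Krt20 between 0.85 and 2.89, Cldn3 between 0.82 and 2.28 and Cldn4 between 1.23 and 3.01. Cldn2, at 0.07, was below 0 with the values as deposited (-0.05) and after median centring (-0.05). None of the 10 passed limma's test adjusted over all genes (each adjusted p = 1), and 0 of 30142 genes (0%) did. Before adjustment 2 of the 10 genes, Krt7 and Cldn7, were higher at a limma p under 0.05, beside 2.65% of all genes. Cldn7 was the 1 gene of the 10 higher without overlap, beside 5.6% of all genes. The exact permutation p of Cldn7 was 0.1, the smallest that 3 against 3 allows, and it ran from 0.2 to 1 for the other 9. In whole tumours, a larger share of epithelial cells and more RNA per epithelial cell cannot be told apart.

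The control-probe separation of the arrays moved with these values. In the FAP line the 3 arrays of normal separation were above the 3 of low separation for 6 of the 10 genes, the 5 keratins and Cldn2, while 25.4% of all genes showed this. The keratin mean was 16.68, 15.24 and 17.13 in the FAP depleted tumours and 14.94, 16.27 and 14.10 in the FAP-TK controls, and the lowest 3 of these 6 are the arrays of low separation. Within the arrays of normal separation, FAP depleted tumours 1 and 3 were both above FAP-TK control 2 for 7 of 10 genes, where 38.8% of all genes were. These differences were 2.93 for Cldn4, 2.19 for Cldn3, 1.14 for Krt18, 1.07 for Krt8, 0.86 for Cldn7 and 0.71 for Krt7, against -0.06 for Krt20 and -0.46 for Cldn18. Within the arrays of low separation, FAP depleted tumour 2 was above the mean of FAP-TK controls 1 and 3 for 6 of 10 genes, where 48.2% of all genes were, with 0.55 for Krt7, 0.46 for Krt8, 0.52 for Cldn7 and 2.11 for Krt20, against -0.18 for Cldn4 and -0.25 for Cldn3. Each set holds few tumours, the second only 1 depleted against 2 controls, and the part of array quality in the FAP differences of the 10 genes was not tested. With separation as a covariate, an alternative chosen after seeing the data, 0 of the 10 genes passed in the FAP comparison. As 0 passed without it too, this count does not show what the covariate changed.

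**Figure D3:**
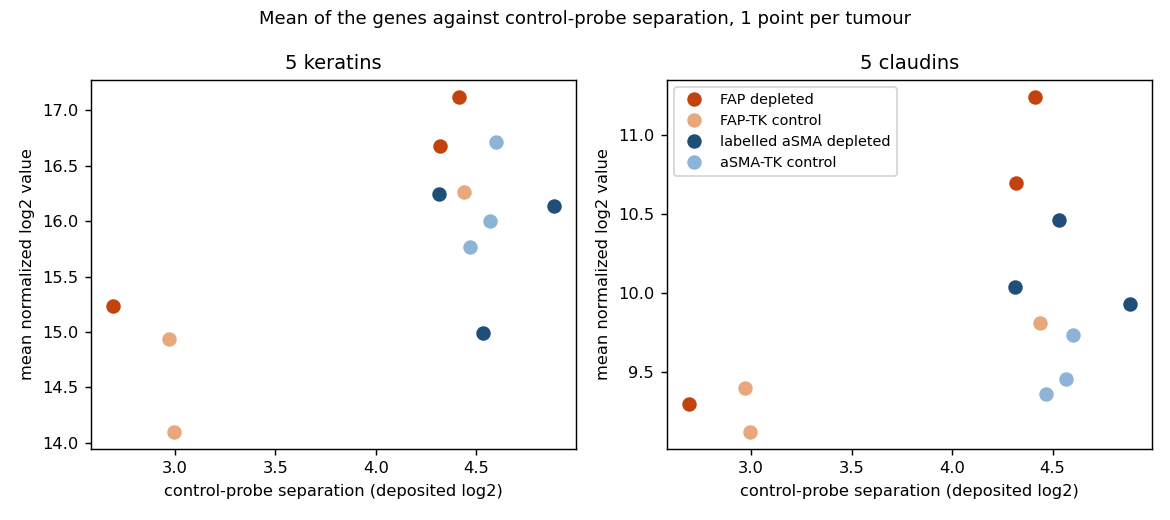
Mean normalized log2 value (y axis) of the 5 keratins (left) and 5 claudins (right) against control-probe separation in deposited log2 units (x axis), 1 point per tumour, coloured by group. The 3 tumours at a separation under 3 have claudin means of 9.12 to 9.40, and keratin means of 14.10 to 15.24, a range shared only by the tumour labelled aSMA depleted 1 at 14.99.

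Marker lists of other cell types were counted in the same tumours. The acinar list was higher in 13 of 14 measured genes (median 1.96), with list means of 8.23 to 10.11 in FAP depleted and 6.74 to 8.87 in FAP-TK control tumours. The fibroblast list was lower in 9 of 10 genes (median -0.55), with means of 7.36 to 9.90 in FAP depleted and 8.60 to 10.08 in FAP-TK control tumours, and the leukocyte list in 8 of 9 (median -0.52), with means of 6.46 to 8.86 in FAP depleted and 6.84 to 9.77 in FAP-TK control tumours. The endothelial list was higher in 5 of 7 (median 0.15) and the islet list in 8 of 9 (median 0.28). The mesothelial list was lower in 6 of 8 (median -0.21) and the adipocyte list higher in 4 of 6 (median 0.04). The tumour with the lowest fibroblast, leukocyte and endothelial means was FAP depleted 2, and 0 genes of these lists were called in this comparison. Not above the negative-control median on most arrays were Bhlha15, Cela2a and Rbpjl of the acinar, Cd3e and Cd79a of the leukocyte and 0 genes of the fibroblast list. Of the islet list Chgb, Pcsk1 and Scg2 were not above that median on most arrays. Nor were Adipoq, Cidec, Lep, Pck1 and Plin1 of the adipocyte list and 6 of the 8 mesothelial genes. The part of these cells in the keratin and claudin values was not tested.

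In the aSMA comparison 5 of 10 genes were higher and 5 lower, beside 53.2% of all genes above 0, with a median difference of 0.0043 against 0.01 for all genes. With the values as deposited Krt18 was at -0.025, so 4 of 10 were higher. None of the 10 was called (adjusted p by limma from 0.944 to 0.983), as 0% of all genes were, and 4.81% of all genes but 0 of the 10 had an unadjusted p under 0.05. Without overlap, Krt7 was lower, beside 5.08% of all genes, and Cldn4 was higher, beside 7.43%. By family, 1 of 5 keratins and 4 of 5 claudins were higher in the tumours labelled aSMA depleted, with medians of -0.44 and 0.60. In the same tumours the fibroblast list was higher in 10 of 10 genes (median 0.79) and the leukocyte list in 9 of 9 (median 0.53), with 0 called. Fibroblast means were 9.59 to 10.90 in the tumours labelled aSMA depleted and 8.72 to 9.51 in aSMA-TK controls. Leukocyte means were 8.62 to 9.48 in the tumours labelled aSMA depleted and 8.05 to 8.82 in aSMA-TK controls. The part of these cells in the keratin and claudin values was not tested.

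In that line 1 tumour stood apart. The tumour labelled aSMA depleted 1 was the lowest of its line for 4 of 5 keratins, while it was the highest of its line for Cldn3 and Cldn4. Its keratin mean was 14.99, against 16.24 and 16.14 in the other 2 tumours of its group and 15.76 to 16.71 in the aSMA-TK controls. The same tumour had an acinar list mean of 5.75, against 10.70 and 12.32 in its group and 8.90 to 10.86 in the controls, and a gastric mucosal mean of 12.80, against 15.59 and 15.82 in its group and 15.19 to 15.67 in the controls. Its islet mean of 7.91 was the highest of the 12 tumours, and its separation of 4.53 was within the range of the other arrays. Without it the differences were -0.30 for Krt7, 0.17 for Krt8, 0.29 for Krt18, -0.08 for Krt19 and 0.08 for Krt20, so Krt8 and Krt20 changed sign, and Cldn4 was at 0.99. The part of the acinar and gastric genes in these values was not tested.

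The difference between the depletion effects, aSMA minus FAP, was below 0 for 8 of 10 genes with a median of -1.03, where the median of all genes was -0.03 and 46.4% were above 0. Krt7 was at -1.34 ± 0.40 (limma, unadjusted p = 0.00750) and Cldn7 at -1.20 ± 0.34 (limma, unadjusted p = 0.00548), both lower, beside 3.87% of all genes with such a p under 0.05. None of the 10 passed after adjustment (0.829 or more), as 0% of all genes did. So for no gene of the 10 were the effects shown to differ between the lines.

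**Figure D4:**
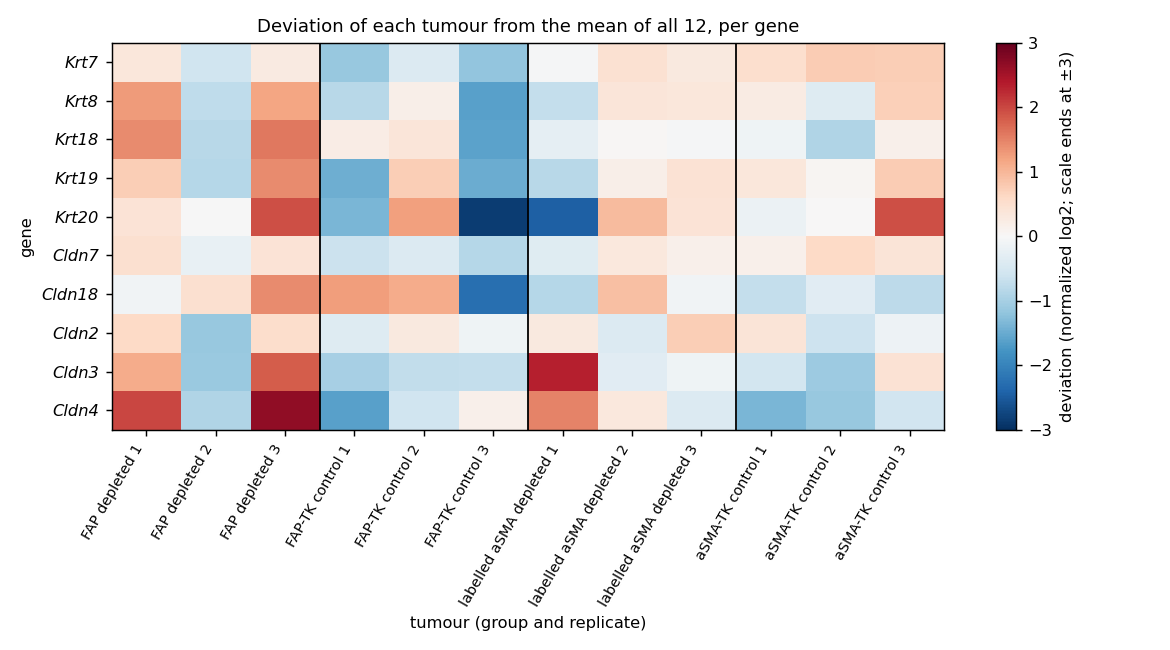
Deviation of each tumour (x axis, group and replicate) from the mean of all 12 for each gene (y axis), in normalized log2 units, with red above and blue below that mean. FAP-TK control 3 is the lowest of its line in all 5 keratins, and in the tumour labelled aSMA depleted 1 the keratins are below and Cldn3 and Cldn4 above the mean.

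How the genes varied between tumours of 1 group gave a further description. After group means were taken off, the 15 pairs among the 5 keratins and Cldn7 had r from 0.61 to 0.91 over the 12 arrays. Without the 2 arrays farthest from the median of the first gene of each pair, the range was wider. It then ran from 0.27 for Krt18 with Cldn7 to 0.89 for Krt7 with Cldn7. Cldn3 and Cldn4 had r = 0.86 with each other (rho 0.87, and 0.77 without the 2 farthest arrays) and r from -0.08 to 0.50 with the keratins. Krt7 and Cldn7 had r = 0.90 (rho 0.91). All these points share the arrays and their quality, and 7.62% of all other genes had an r over 0.8 with the mean of the 10. With clone and predicted gene names left out, the genes most alike to that mean were Zswim7 (r = 0.98), Tmprss11e, Fam20b, Zdhhc5 and Med10. Each r was over the same 12 arrays.

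Between the lines, the aSMA-TK controls were set against the FAP-TK controls, which are also the controls of the depletion comparisons. Krt7 was higher in the aSMA-TK controls by 1.58 ± 0.28 (limma, adjusted p = 0.0159) and Cldn7 by 1.01 ± 0.24 (adjusted p = 0.0363), and in each gene all 3 aSMA-TK controls were above all 3 FAP-TK controls. These 2 calls stand beside 2350 calls among all genes (7.8%, and 4.78% higher), and 21.3% of all genes were higher without overlap. Of the 10 genes 7 were higher, beside 58.2% of all genes. The median of the 10 genes was 0.68, with 1.13 for the keratins and -0.06 for the claudins, against 0.07 for all genes. Krt7 was also the only one of the 10 called in the test over all 4 groups (adjusted p = 0.0363, where 6.68% of all genes were called). The deposited column medians were 3.89 to 4.10 in the aSMA line and 4.41 to 4.65 in the FAP line. Without normalization the median of all genes was -0.39, and 3.41% of the called genes were higher, against 61.3% after quantile normalization. Line, strain background and array batch cannot be told apart here.

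Several settings ended these line calls. Without the 3 arrays of low separation 0 of the 10 were called (adjusted p = 0.0649 for Krt7 and 0.194 for Cldn7) and the median of the 10 was -0.39. With dim genes left out, 49 genes and 0 of the 10 were called (adjusted p = 0.0525 for Krt7 and 0.0910 for Cldn7), and with only the groups compared 0 of the 10 were (0.0515 for Krt7 and 0.0566 for Cldn7). The Cldn7 call also ended with the values as deposited, at 0.09 (adjusted p = 0.698), after median centring, at 0.54 (0.0945), and with separation as a covariate, at 0.69 (0.135). The Krt7 call ended without FAP-TK control 3 (0.0567) or aSMA-TK control 2 (0.0585), and that of Cldn7 without FAP-TK control 1 (0.0869) or 3 (0.108) or aSMA-TK control 1 (0.0664), 2 (0.119) or 3 (0.0800).

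Between the depleted groups, tumours labelled aSMA depleted minus FAP depleted, 3 of 10 genes were higher, beside 55.2% of all genes, and 7 lower (median -0.53), from -1.15 ± 1.17 for Krt20 to 0.24 ± 0.28 for Krt7. None was called (adjusted p from 0.497), while 5.18% of all genes were. Over all 4 groups, the highest mean was in FAP depleted tumours for 6 genes and the lowest in FAP-TK controls for 7. Of the 30 pairs of groups next to each other in these orders, 26 had a gap within the pooled SD of the pair. The gap was larger, with no overlap, for Krt7 between the aSMA-TK controls and the tumours labelled aSMA depleted. Of all genes, 5.08% were lower without overlap in that comparison. The same held for Cldn7 between the tumours labelled aSMA depleted and the FAP-TK controls. These groups differ in both line and depletion, and the share of all genes was not counted for them. The orders were set by the same values, so the gaps are a description and not a test.

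The proteins that work with keratins and claudins were counted beside them. In FAP depleted tumours, desmosome and hemidesmosome genes, whose products anchor keratin filaments at the membrane, were higher in 14 of 14 (median 0.75), and tight junction partners in 18 of 19 (median 0.67). Col17a1 and Evpl of the desmosome and hemidesmosome list were not above the negative-control median on most arrays. Itgb4, the hemidesmosomal integrin chain, was at 1.40 ± 0.38 and Plec, the linker plectin, at 0.95 ± 0.33. The junctional adhesion molecule F11r was at 0.96 ± 0.26 and cingulin, Cgn, at 1.43 ± 0.41. For Itgb4, F11r and Cgn all FAP depleted tumours were above all FAP-TK controls, FAP depleted tumour 2 included. These genes were named for their small p in this comparison, and 5.6% of all genes were higher without overlap. In the tumours labelled aSMA depleted the same lists were lower in 9 of 14 (median -0.18) and 15 of 19 (median -0.13), with Dsc2, a desmosomal cadherin, at -1.49 ± 0.70, Itga6 at -0.54 ± 0.36, Lsr, which forms tricellular junctions, at -0.68 ± 0.41 and Tjp3 at -0.62 ± 0.37. Limma called 0 genes of these lists in either depletion comparison, as 0% of all genes were. Between the controls limma called 1, Itgb4 (1.54 ± 0.38, adjusted p = 0.0409), where 7.8% of all genes were called.

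**Figure D5:**
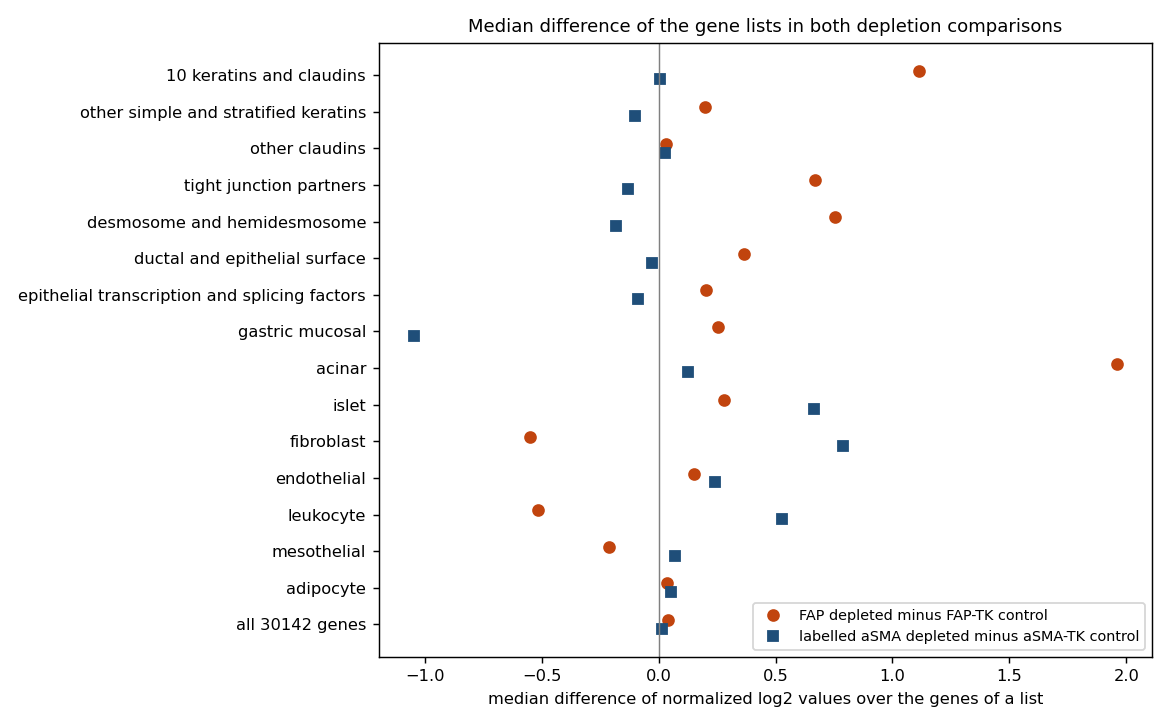
Median difference of normalized log2 values (x axis) over the measured genes of each list (y axis), for FAP depleted minus FAP-TK control (circles) and labelled aSMA depleted minus aSMA-TK control (squares). The 10 genes have medians of 1.12 and 0.0043, and all genes 0.04 and 0.01.

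Other keratins were higher in 12 of 13 in FAP depleted tumours (median 0.20) and lower in 10 of 13 in the tumours labelled aSMA depleted (median -0.10), but 8 of the 13 were not above the negative-control median on most arrays. Krt4, a keratin of stratified mucosa, was at 1.79 ± 0.76 and Krt79 at 0.50 ± 0.22 in the FAP line, while Krt79 was at -0.39 ± 0.22 and Krt16 at -0.17 ± 0.07 in the aSMA line. Of the 18 other claudins 3 were above that median on most arrays. The median difference over all 18 was 0.03 in each depletion comparison. Cldn6, an embryonic claudin, had 7.89, 4.60 and 8.75 in FAP depleted and 3.97, 5.78 and 5.33 in FAP-TK control tumours (2.05 ± 1.01), which are the same 2 depleted tumours that were high in Cldn3 and Cldn4. Cldn9 was at 0.64 ± 0.21 in the FAP line, Cldn11 at 0.17 ± 0.11 and Cldn12 at -0.22 ± 0.15 in the aSMA line. Between the controls Krt16 (0.40, limma adjusted p = 0.0182) and Cldn9 (0.85, adjusted p = 0.0397) were called, and Cldn11 (0.53, adjusted p = 0.0333) between the depleted groups, all from genes near background. Of all genes, 7.8% were called between the controls and 5.18% between the depleted groups.

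Transcription and splicing factors of epithelium were higher in 14 of 15 in FAP depleted tumours (median 0.20). They were lower in 10 of 15 in the tumours labelled aSMA depleted (median -0.09). Of these factors, Grhl1, Ovol1 and Ovol2 were not above the negative-control median on most arrays. Grhl2, a factor that maintains epithelial junction genes, had 8.76, 9.32 and 9.07 in FAP depleted and 8.43, 8.01 and 8.41 in FAP-TK control tumours (0.77 ± 0.16, limma, unadjusted p = 0.000941, adjusted p = 1). Its highest value was in FAP depleted tumour 2, which had the lowest value of its group for all 5 keratins. Grhl2 was lower in the tumours labelled aSMA depleted than in FAP depleted tumours (-0.72 ± 0.16, limma adjusted p = 0.0381). Between these groups 5.18% of all genes were called, and line, strain background and array batch cannot be told apart. Hnf4a was at 0.70 ± 0.28 in the FAP line and -0.65 ± 0.28 in the aSMA line, where Foxa1 was at 0.73 ± 0.42. Ductal and epithelial surface genes were higher in 9 of 12 (median 0.37) and 6 of 12 (median -0.03), with the protease gene St14 at 1.01 ± 0.35 and Ezr at 1.23 ± 0.61 in the FAP line, and Cftr at -1.98 ± 0.99 and Prom1 at 1.56 ± 0.85 in the aSMA line.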

How the data were processed

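Whole-transcript arrays of 12 tumours were used, with 1 array per mouse. The values are log2 intensities as deposited by the authors. That they are log2 was read from their range of 1.64 to 19.93, since the normalization is not given in the sources used here. Limma is named in the submitters' processing notes, without a version. The labels' protocols name an Illumina kit, while the probe set names are of the Affymetrix type.

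After 6732 control probe sets were set aside, 65956 were quantile normalized. Of the 32750 probe sets listed with a gene, 30604 had 1 symbol and 2146 had several, and 33206 were unlisted. After 827 symbols were updated through RefSeq (GRCm38.p6), 30142 genes were left, each by its probe set of highest mean (355 had more than 1). Limma 3.58.1 in R 4.3.3 fitted 1 mean per group over all 12 arrays, with 8 residual degrees of freedom and Benjamini-Hochberg adjustment over all genes, called under 0.05. The fit was tested on simulated data. Permutation tests were exact and two-sided, with 0.1 as the smallest p. The number of arrays limits the precision.

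The 10 genes, the gene lists and the tests were chosen with earlier results of these data known. The text names all 10, Fap and Acta2, the called genes of each list and its 2 genes of smallest p in each depletion comparison. It also names the 5 genes most alike to the mean of the 10, with clone and predicted gene names left out. The alternatives were no normalization, median centring, a dim-gene filter, mean of probe sets, only the groups compared, trended variances, array weights, an offset, a looser threshold, and arrays left out. Control-probe separation as a covariate was added after seeing the data.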

Additional observations from a re-analysis of the deposited data

How the results depend on the processing

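No paired analysis was possible because replicate numbers were given in accession order and only name a tumour. The limits are 3 tumours per group, 3 arrays of low separation in the FAP line, and Cldn2, Cldn3 and Cldn7 near background. Apart from leaving out 1 tumour, 489 alternative values of single genes kept their direction and side of the threshold. Of the other single-gene values 36 changed sign, 9 lost and 6 gained a call. Among counts and medians 142 stayed and 40 moved. To stay, a count had to be within 1.5 times, and a median within 0.6471 of its main value, whatever its sign. Where a value moved, the cause was not tested.

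In the FAP comparison the median of the 10 genes was 1.92 with array weights. Cldn2 was -0.0503 as deposited, -0.0513 after median centring and -0.2066 with separation as a covariate. Without the 3 arrays of low separation 13 genes were called, Krt20 was -0.0571 and Cldn18 -0.4567. In the aSMA comparison Krt18 was -0.025 as deposited. In the difference of effects Cldn18 was -0.3993 as deposited, -0.32 after median centring and -0.6364 with array weights, where Cldn2 was -0.3795.

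Between the controls 2350 genes and 2 of the 10 were called. Calls numbered 12443 as deposited (424 higher), 5769 after median centring, 6658 with array weights, 5104 at an adjusted p under 0.1, 1543 with an offset of 50, 1012 with the covariate (1 of the 10), 357 without the low-separation arrays, 212 with only the groups compared and 49 with dim genes left out (0 of the 10 in these last settings, with 13245 genes kept by the dim filter, all 10 among them). Cldn3 was -0.5177 as deposited, -0.0684 after median centring and -0.5466 with the covariate, where Krt8 was -0.1902, Krt18 -1.0965, Krt19 -0.2827 and the median of the 10 -0.4147. Without the low-separation arrays Krt18 was -0.6482, Krt19 -0.3598, Krt20 -0.6316 and the median -0.3865. With array weights Cldn2 was 0.055 and Cldn18 0.575.

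Between the depleted groups 1562 genes were called, of them 826 higher, against 14287 as deposited (332 higher, and 1 of the 10, Cldn7), 3391 after median centring (2202 higher), 4502 with array weights, 3501 at the looser threshold, 634 without the low-separation arrays, 31 with dim genes left out and 1 with only the groups compared. Krt7 was -0.2399 as deposited, -0.141 with the covariate and -0.0636 without the low-separation arrays. Cldn2 was -0.4593, -0.4105 and -0.356 in the same settings and -0.3245 with array weights. Cldn3 was -0.7106, -0.6638 and -0.838 in them, -0.9409 with array weights, -0.182 after median centring and -0.0014 with the offset. After median centring Krt8 was 0.0204 and Krt19 0.2475. The test over all groups called 2014 genes and 1 of the 10, against 14286 (2 of the 10) as deposited, 4998 after median centring, 7235 (5) with array weights, 4161 (2) at the looser threshold, 536 (0) with the covariate, 515 (0) without the low-separation arrays and 64 (0) with dim genes left out. The offset and trended variances also called 0 of the 10 there.

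Leaving out 1 tumour at a time gave, in the FAP comparison, a median of the 10 from 0.7654 to 1.8289 and 0 to 4 called genes, with the upper ends without FAP depleted tumour 2. The median of the 10 ran from -0.1707 to 0.1948 in the aSMA comparison, -1.5775 to -0.7647 in the difference of effects, 0.3399 to 0.8261 between the controls and -0.9909 to -0.0789 between the depleted groups. In the FAP comparison Cldn2 ran from -0.2304 to 0.6315 and Cldn18 from -0.5818 to 1.1736. In the aSMA comparison 0 to 16 genes were called, Krt8 ran from -0.4736 to 0.1651, Krt18 from -0.1107 to 0.4228 and Krt20 from -1.6199 to 0.0785. In the difference of effects 0 to 1 genes were called, and Cldn2 ran from -0.2969 to 0.5768, Cldn3 from -1.2488 to 0.213, Cldn4 from -1.5131 to 0.2684 and Cldn18 from -0.5725 to 1.183. Between the controls 508 to 3130 genes and 0 to 2 of the 10 were called, and Krt18 ran from -0.5839 to 0.4028, Cldn2 from -0.3195 to 0.1844, Cldn3 from -0.01 to 0.7476 and Cldn4 from -0.8015 to 0.0841. Between the depleted groups 374 to 1874 genes were called, and Krt7 ran from -0.0636 to 0.4048, Cldn2 from -0.356 to 0.5177, Cldn3 from -0.8421 to 0.6198 and Cldn7 from -0.4119 to 0.0189. The test over all groups called 871 to 2477 genes and 0 to 3 of the 10.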

Other observations

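Gastric mucosal genes, which are often made by pancreatic tumours of duct-like type, were higher in 8 of 14 in FAP depleted tumours (median 0.25) and in 3 of 14 in the tumours labelled aSMA depleted (median -1.05), and 0 were called. The gel-forming mucin Muc6 was at -4.44 ± 1.70 and Agr2, which folds mucins, at -3.62 ± 1.43 in the FAP line, with overlap in each. In the aSMA line Muc5ac was at -2.92 ± 1.85, and Pgc, the gene of a stomach pepsinogen, at 5.06 ± 1.31 (limma adjusted p = 0.944). Pgc was higher without overlap in the tumours labelled aSMA depleted, beside 7.43% of all genes. It had 11.05, 13.17 and 6.53 there and 6.04, 4.59 and 4.95 in aSMA-TK controls. Over all 12 arrays Pgc was not above the negative-control median on most. In the tumours labelled aSMA depleted that median was 4.88, 4.56 and 4.50 before normalization. Tff3 was higher in the aSMA-TK than in the FAP-TK controls by 2.53 ± 0.56 (limma adjusted p = 0.0297). Between these controls 7.8% of all genes were called, and line, strain background and array batch cannot be told apart.

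Msln, a surface protein of mesothelium and of many pancreatic cancers, was higher in all FAP depleted than in all FAP-TK control tumours by 1.94 ± 0.48 (limma adjusted p = 1). Of all genes, 5.6% were higher without overlap in this comparison. Msln was lower in the tumours labelled aSMA depleted than in the FAP depleted tumours (-2.27 ± 0.48, limma adjusted p = 0.0316). Between these groups 5.18% of all genes were called, and line, strain background and array batch cannot be told apart. The mesothelial list did not share the first direction, with 6 of 8 genes lower in FAP depleted tumours, among them Muc16 (-0.21 ± 0.09, lower in all 3). Of the 8 genes, 6 were not above the negative-control median on most arrays. In the aSMA line Msln was at 0.90 ± 0.48 and Lrrn4 at -0.29 ± 0.23.

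Among the other marker genes none was called in a depletion comparison. The acinar enzyme gene Cela3b was at 2.01 ± 0.92 and the zymogen granule gene Zg16 at 2.15 ± 1.01 in the FAP line, and Zg16 was at 2.89 ± 1.01 and Cela2a at 1.37 ± 0.96 in the aSMA line. Among fibroblast genes Fbln1 was at -0.36 ± 0.28 and Thy1 at -0.93 ± 0.78 in the FAP line, and the matrix gene Dcn at 2.71 ± 1.15 and Pdpn at 1.21 ± 0.68 in the aSMA line. Among leukocyte genes Tyrobp was at -0.89 ± 0.88 and Adgre1, a macrophage marker, at -0.72 ± 0.73 in the FAP line, and Cd3e of T cells at 0.99 ± 0.33 and Itgam at 1.53 ± 1.07 in the aSMA line. Endothelial Tek was at -0.32 ± 0.45 and Plvap at 0.55 ± 1.10 in the FAP line, and Pecam1 at 0.80 ± 0.71 and Plvap at 0.90 ± 1.10 in the aSMA line. Adipocyte Fabp4 was at -0.78 ± 0.63 and Plin1 at 0.07 ± 0.07 in the FAP line, and Adipoq at 0.12 ± 0.10 and Fabp4 at 0.60 ± 0.63 in the aSMA line. Islet Pcsk1 was at 0.13 ± 0.09 and Gcg at 1.18 ± 1.08 in the FAP line, and Scg2 at 0.67 ± 0.35 and Ins2 at 0.98 ± 0.54 in the aSMA line. Of these marker genes Cela2a, Cd3e, Plin1, Adipoq, Pcsk1 and Scg2 were not above the negative-control median on most arrays.

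Between the lines limma called 3 such genes, beside 7.8% of all genes between the controls and 5.18% between the depleted groups. Line, strain background and array batch cannot be told apart in these comparisons. Pcsk1 was higher in the aSMA-TK than in the FAP-TK controls by 0.67 ± 0.09 (limma adjusted p = 0.00644), and higher in the tumours labelled aSMA depleted than in FAP depleted tumours by 0.54 ± 0.09 (limma adjusted p = 0.0134). Insulin gene Ins2 was higher in the tumours labelled aSMA depleted than in FAP depleted tumours by 2.59 ± 0.54 (limma adjusted p = 0.0302). The B cell gene Cd79a was higher by 0.84 ± 0.21 between the same controls (limma adjusted p = 0.0410) and by 0.97 ± 0.21 between the same depleted groups (limma adjusted p = 0.0314). Pcsk1 and Cd79a were not above the negative-control median on most arrays.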
